A study of Mus musculus with 7 samples.

Results

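T cell and cytotoxic lymphocyte genes were followed in 7 bulk RNA-seq libraries of cells sorted from mouse skin on day 36. The set holds 37 genes taken by name from the deposited table of 25322 genes, all of which were found there: chains of the T cell receptor and CD3 complex, coreceptors and costimulatory receptors, proximal signalling proteins, cytokine receptors, lineage factors and cytotoxic or natural killer (NK) genes. Each gene is given as its normalized value and as a percentage of Ptprc, the pan-leukocyte antigen CD45, in the same library. There were 4 Zfp750_KO and 3 control libraries. The Zfp750_KO libraries are given as ZNF750 fl/fl, of which 3 are Rosa26 +/- and 1 is Rosa26 -/-. The controls are Rosa26 +/-, of which 2 are given as ZNF750 wt/fl and 1 as wt/wt. All carry 1 copy of the tamoxifen-inducible Lrig1-CreERT2, so recombination was directed to cells that express Lrig1, a marker of hair follicle stem cells. All also received 4-hydroxytamoxifen on days 4 to 7 or 5 to 8, and tdTomato-expressing skin cells were sorted. Separate animals are not stated for the libraries, so every p-value reflects the spread among libraries, which may be technical.

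T cells recognise antigen through the T cell receptor, which signals through the CD3 chains, the kinases Lck and Zap70 and the adaptor Lat. Costimulatory receptors such as CD28 and ICOS add to that signal, and CTLA-4 restrains it. Mouse skin holds gamma-delta T cells in the epidermis and alpha-beta T cells in the dermis, many of them Foxp3-positive regulatory T cells near hair follicles, which carry high CTLA-4, ICOS and the interleukin-2 receptor alpha chain. NK cells and cytotoxic T cells kill with perforin and granzymes.

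The libraries, named by their columns, held 12.9, 13.6, 9.55 and 15.2 M reads across Zfp750_KO 1M, 2M, 3F and 6F and 17.1, 9.09 and 9.97 M across control 4F, 4M and 7F, as recovered from the values. Zfp750 itself was at 48.9, 45.4, 10.1 and 29.6 in the Zfp750_KO libraries, against 335, 51.2 and 61.9 in the controls, so the groups did not overlap, although Zfp750_KO 1M and control 4M lay close together. Checked against markers of skin, 10 keratinocyte markers summed to 316 to 2721 per M of the library total in Zfp750_KO and 321 to 3004 per M in control. The 8 fibroblast markers summed to 17119 to 111871 per M in Zfp750_KO and 86910.1 to 177317 per M in control, far above the keratinocyte markers in every library. Leukocyte RNA differed widely within both groups. Ptprc (ENSMUSG00000026395, chromosome 1) was at 538, 517, 13422 and 10251 across Zfp750_KO 1M, 2M, 3F and 6F, against 58.8, 5652 and 7853 across control 4F, 4M and 7F. The macrophage score, the mean log2 value of 21 macrophage and monocyte genes, followed Ptprc: it was 7.60, 7.27, 11.4 and 11.0 in those Zfp750_KO libraries, against 5.92, 10.1 and 10.3 in the controls. Zfp750_KO 1M and 2M, control 4F and the other 4 libraries therefore stand at 3 separate levels, and no control had a Ptprc value near that of Zfp750_KO 1M and 2M. In Zfp750_KO the lower pair carries the letter M and the higher pair the letter F. Xist, the RNA of the inactive X chromosome, and the Y-linked Ddx3y fit the letters except in control 4M, which had 3318 of Xist beside 810 of Ddx3y; Xist was at 0.966 to 6.24 in Zfp750_KO 1M and 2M. In bulk samples, fewer cells of a type and less RNA per cell cannot be told apart.

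The comparison of Zfp750_KO with control asks whether the T cell and cytotoxic genes differ after Zfp750 loss. Most of them were high in Zfp750_KO 3F and 6F, intermediate in Zfp750_KO 1M and 2M and in control 4M and 7F, and close to 0 in control 4F. On the deposited scale none of them passed an adjusted p of 0.05. Of the 37 genes, 33 were tested, and Cd8b1, Gzma, Ncr1 and Ccl5 fell below the minimum of 1 per M in at least 3 libraries. With the group as the only term, limma with Benjamini-Hochberg adjustment called none of the 33, in either direction, as it called 0% of the 18141 genes tested. An unadjusted p under 0.05 was seen for 5 of the 33, Cd6, Icos, Il2ra, Trbc2 and Gzmb, against 5.83% of all genes. The log2 difference was positive in 32 of the 33, against 53.3% of all genes, with a median of 1.04 beside 0.025 over all genes. Without control 4F it was positive in 25 of the 33, with a median of 0.42, and without Zfp750_KO 3F in 27 of 32, with a median of 0.64. With array weights it was positive in 12 of the 33, with a median of -0.26 beside 0.014 over all genes. That fit called 1883 of the 18141 genes higher and 1912 lower. None of the 33 had Zfp750_KO values that all lay above the controls, against 3.19% of all genes, and none had values that all lay below them, against 3.91%. The count rests on the libraries with little Ptprc. In the 4 libraries of high Ptprc, Zfp750_KO 3F and 6F were set against control 4M and 7F. There 23 of 34 genes tested were called higher and none lower. Of all 18557 genes tested there, 4.59% were called higher and 1185 genes lower. Ptprc was also higher in that pair of Zfp750_KO libraries (13422 and 10251, against 5652 and 7853), and the part of leukocyte content in the 23 calls was not tested.

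**Figure D1:**
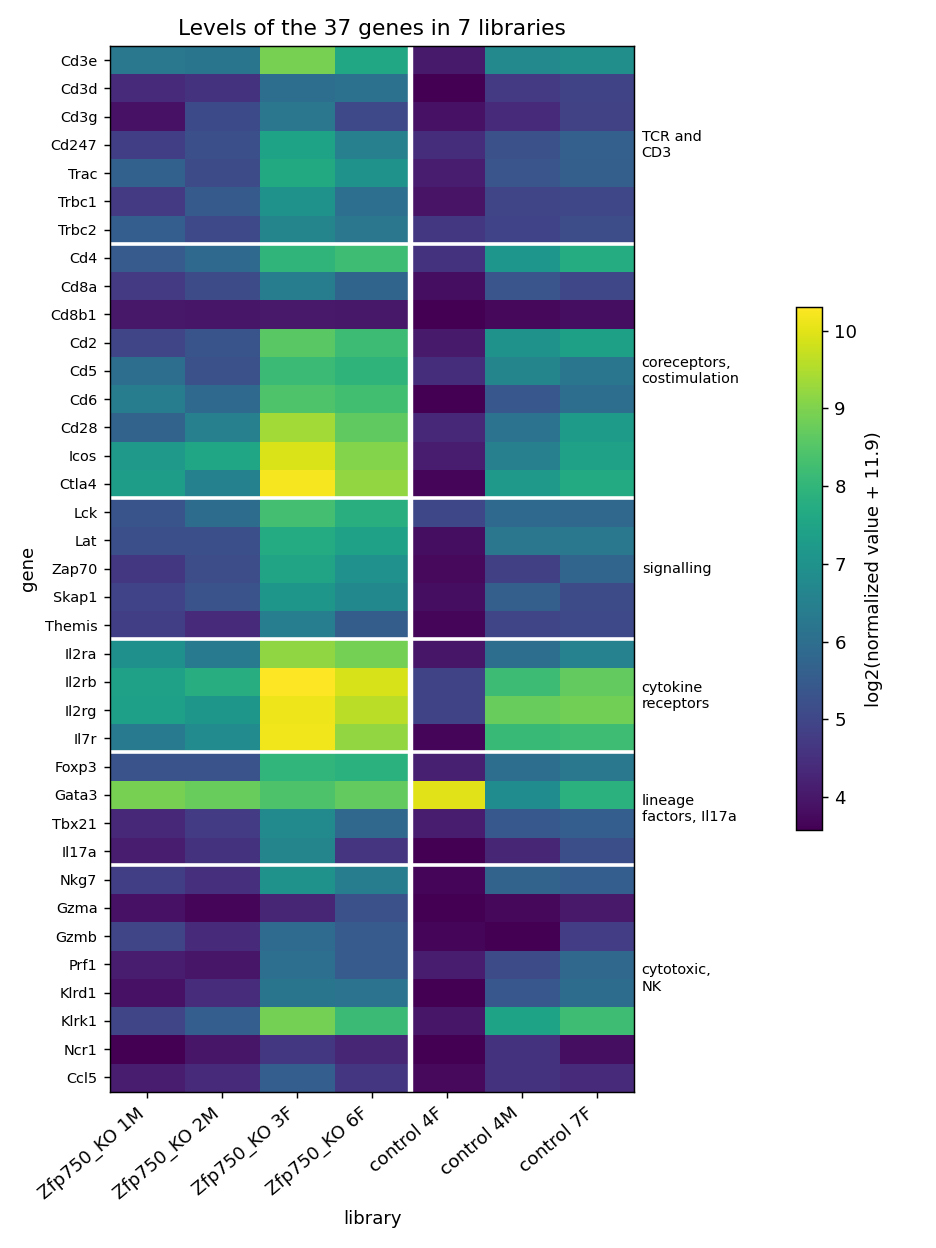
Heat map of log2(normalized value + 11.9) for the 37 genes, 1 row per gene grouped by role, with the 4 Zfp750_KO libraries left of the 3 control libraries. Zfp750_KO 3F and 6F are the brightest columns for most genes and control 4F the darkest, where 7 of the 37 genes are listed at 0; Gata3 is the exception, brightest in control 4F.

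Since leukocyte content varied within both groups, a fit with the macrophage score as a covariate was read beside the first. It was adopted from an earlier look at these data. There, limma with Benjamini-Hochberg adjustment called 5 of the 33 genes higher in Zfp750_KO and none lower, against 1.49% of all genes called higher and 2.3% lower. The 5 were the costimulatory and inhibitory receptors Icos, Ctla4 and Cd6 and the interleukin-2 receptor chains Il2ra and Il2rb. The log2 difference was positive in 30 of the 33 genes, against 52.1% of all genes, with a median of 0.78 beside 0.017 over all genes. An unadjusted p under 0.05 was reached by 21 of the 33, against 18.2% of all genes. Without control 4F the fit called 15 of the genes, beside 621 of all 17924 genes called higher. Without control 4M it called 3, Cd6, Icos and Il2ra, beside 55 of all 17654. The 4 libraries of high Ptprc alone gave no call in this fit, which then has a single residual degree of freedom, and the differences of Icos and Ctla4 were then -0.27 and -0.26. Unless stated otherwise, the log2 differences below are from the fit with the score, on the log2(value + 11.9) scale, which understates changes of low genes.

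**Figure D2:**
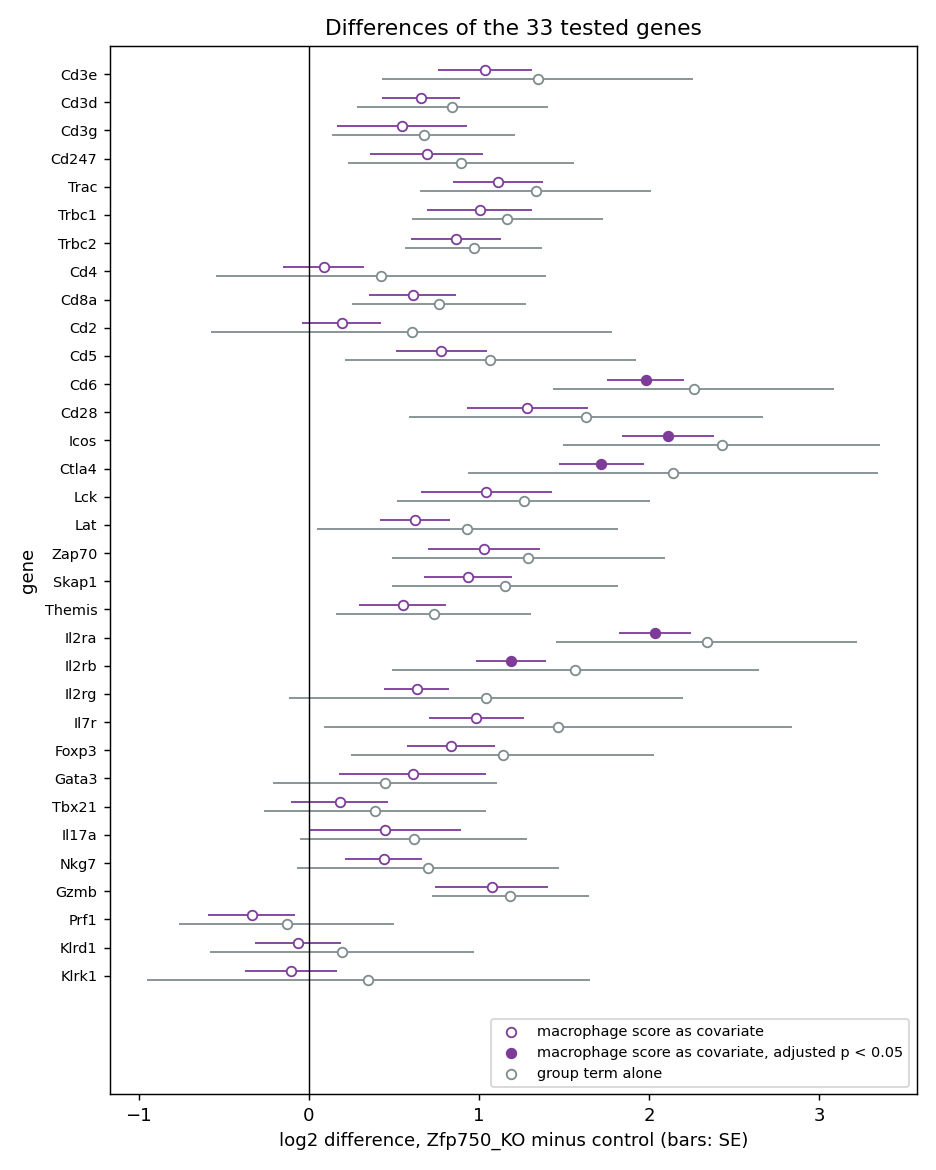
Log2 difference, Zfp750_KO minus control, of the 33 tested genes with its SE as a bar, in the fit with the macrophage score (upper point of each gene) and with the group term alone (lower point). Filled points passed an adjusted p of 0.05: Icos, Ctla4, Cd6, Il2ra and Il2rb, all with the score; the SE with the group term alone is wider for every gene shown.

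Among coreceptors and costimulatory or adhesion receptors 3 of 8 tested genes rose, Icos, Ctla4 and Cd6, and none fell. Icos (ENSMUSG00000026009, chromosome 1), a costimulator of activated, follicular helper and regulatory T cells, was at 136, 178, 958 and 518 across Zfp750_KO 1M, 2M, 3F and 6F, against 5.42, 78.8 and 159 across control 4F, 4M and 7F. Its means were 447 ± 381 (SD, n = 4) in Zfp750_KO and 80.9 ± 76.6 (SD, n = 3) in control. Only Zfp750_KO 1M lay below a control, and by little, although Zfp750_KO 1M and 2M held less Ptprc than control 4M and 7F. On the log2 scale Icos rose by 2.11 ± 0.27 (SE), with an adjusted p of 0.00499 in limma. With the group term alone the difference was 2.43 ± 0.93, and 1.48 without control 4F.

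Ctla4 (ENSMUSG00000026011, chromosome 1), which competes with CD28 for its ligands and restrains activation, was at 148, 80.2, 1177 and 581 across Zfp750_KO 1M, 2M, 3F and 6F, against 0.774, 133 and 195 across control 4F, 4M and 7F. Zfp750_KO 3F and 6F stood above every control, and Zfp750_KO 1M and 2M within the range of the controls. Ctla4 rose by 1.72 ± 0.25 (SE, adjusted p = 0.00811 in limma). The call was lost without control 4M, at an adjusted p of 0.0646. With the group term alone its difference was 2.14 ± 1.21, and 0.89 without control 4F.

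Cd6 (ENSMUSG00000024670, chromosome 19), an adhesion receptor of T cells that binds ALCAM, was at 73.8, 46.4, 335 and 298 across Zfp750_KO 1M, 2M, 3F and 6F, against 0, 30.2 and 51.7 across control 4F, 4M and 7F. Only Zfp750_KO 2M lay below the highest control. Cd6 rose by 1.98 ± 0.23 (SE, adjusted p = 0.00356 in limma), and its difference with the group term alone was 2.26 ± 0.83. Cd28, the main costimulatory receptor, was at 40.5, 79.2, 646 and 389 across Zfp750_KO 1M, 2M, 3F and 6F, against 8.52, 59.1 and 144 across control 4F, 4M and 7F. It did not pass in either fit. Cd5, a negative regulator of receptor signalling, ranged over 26.1 to 273 in Zfp750_KO and 10.1 to 88.0 in control, and did not pass. Cd2, an adhesion receptor of T and NK cells, ranged over 19.8 to 367 in Zfp750_KO and 4.65 to 155 in control, and did not pass.

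No coreceptor was called. Cd4, carried by helper and regulatory T cells and by some mouse dendritic cells, was at 33.3, 46.4, 241 and 282 across Zfp750_KO 1M, 2M, 3F and 6F, against 11.6, 126 and 200.2 across control 4F, 4M and 7F. Its values were low or high with Ptprc in both groups, and its log2 difference was 0.088 ± 0.24 (SE). Cd8a, of cytotoxic T cells and some dendritic cells, was at 14.6, 23.2, 72.1 and 41.3 in those Zfp750_KO libraries, against 2.32, 28.9 and 20.2 in the controls, a difference of 0.61 ± 0.26 (SE) that did not pass. Cd8b1, the beta chain, was at 3.86 to 4.51 in Zfp750_KO and 0 to 2.25 in control, a few reads per library, and was not tested.

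Of the 4 cytokine receptor chains, all tested, Il2ra and Il2rb rose and none fell. Il2ra (ENSMUSG00000026770, chromosome 2), the high-affinity chain CD25 of regulatory and activated T cells, was at 112, 71.5, 571 and 462 across Zfp750_KO 1M, 2M, 3F and 6F, against 3.87, 52.5 and 82.1 across control 4F, 4M and 7F. Only Zfp750_KO 2M lay below the highest control. Il2ra rose by 2.03 ± 0.21 (SE, adjusted p = 0.00321 in limma), and its difference with the group term alone was 2.34 ± 0.88. Il2rb (ENSMUSG00000068227, chromosome 15), the signalling chain shared by the receptors for interleukin-2 and interleukin-15, was at 159, 206, 1248 and 939 across Zfp750_KO 1M, 2M, 3F and 6F, against 19.4, 281 and 396 across control 4F, 4M and 7F. The Zfp750_KO libraries lay on both sides of control 4M and 7F. Il2rb rose by 1.19 ± 0.21 (SE, adjusted p = 0.0168 in limma), and lost its call without control 4M or without control 7F, the adjusted p then reaching 0.102. With the group term alone the difference was 1.57 ± 1.08, and 0.41 without control 4F.

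Il2rg, the common gamma chain that most leukocytes carry, was at 155, 128, 1106 and 769 across Zfp750_KO 1M, 2M, 3F and 6F, against 19.4, 411 and 457 across control 4F, 4M and 7F. It followed Ptprc, and its difference of 0.63 ± 0.19 (SE) did not pass. Il7r, the interleukin-7 receptor of resting T cells and innate lymphoid cells, ranged over 67.6 to 1120.4 in Zfp750_KO and over 0.774 to 285 in control, and did not pass.

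RefSeq promoters, read from a GRCm38.p6 table, were available for 24 of the 37 genes. Those of Ctla4 and Il2ra are shown because both genes were called together, and that of Cd3e as a receptor chain that was not called. Each runs from 250 bases before to 50 bases after the start of the gene, 5′ to 3′ on the strand of the gene. Capitals mark GGAA or its reverse complement TTCC, the core that ETS and NFAT factors share.
Ctla4, chr1:60908775-60909074, + strand: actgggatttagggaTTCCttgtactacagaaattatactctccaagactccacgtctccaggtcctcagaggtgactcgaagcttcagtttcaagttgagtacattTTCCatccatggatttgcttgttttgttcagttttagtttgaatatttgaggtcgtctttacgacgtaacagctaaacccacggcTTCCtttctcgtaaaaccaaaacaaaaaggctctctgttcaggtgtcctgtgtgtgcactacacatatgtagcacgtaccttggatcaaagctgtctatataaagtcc
Il2ra, chr2:11642542-11642841, + strand: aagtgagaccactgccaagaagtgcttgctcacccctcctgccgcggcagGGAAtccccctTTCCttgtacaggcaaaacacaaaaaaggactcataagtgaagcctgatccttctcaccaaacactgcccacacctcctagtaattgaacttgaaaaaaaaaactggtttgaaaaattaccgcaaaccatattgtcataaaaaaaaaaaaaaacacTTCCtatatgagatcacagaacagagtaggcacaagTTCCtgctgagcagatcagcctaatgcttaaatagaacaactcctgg
Cd3e, chr9:45009562-45009861, - strand: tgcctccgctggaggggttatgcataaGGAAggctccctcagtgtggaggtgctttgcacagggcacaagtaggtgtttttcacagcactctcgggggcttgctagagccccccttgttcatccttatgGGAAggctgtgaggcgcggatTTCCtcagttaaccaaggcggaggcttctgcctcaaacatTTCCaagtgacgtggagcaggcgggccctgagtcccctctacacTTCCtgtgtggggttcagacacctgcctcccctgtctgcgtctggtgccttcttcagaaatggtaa
The core occurs 3 times for Ctla4, 4 times for Il2ra and 5 times for Cd3e, and 96% of the 32851 promoters in the table hold it on either strand. AGGAAG, a longer ETS form that contains this core, occurs once in the promoters of Ctla4 and Il2ra and 2 times in that of Cd3e, beside 35.4% of all promoters that hold it. TGTGGT, a form of the core of RUNX factors, was searched on both strands and is in none of the 3 windows, while 16.8% of all promoters hold it. Other forms of the RUNX core were not searched. These matches describe the letters and are not sites shown to be bound.

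The receptor chains themselves gave no call, with higher means in Zfp750_KO. All 7 genes of the T cell receptor and CD3 complex were tested and had a positive log2 difference, with a median of 0.86. Their summed values were 183, 198, 1145 and 574 across Zfp750_KO 1M, 2M, 3F and 6F, against 40.3, 212 and 263 across control 4F, 4M and 7F. Cd3e (ENSMUSG00000032093, chromosome 9), the signalling chain common to all T cells, was at 64.5, 60.9, 472 and 184 in those Zfp750_KO libraries, against 4.65, 95.8 and 107 in the controls. Zfp750_KO 3F alone gave the top value. The difference of 1.04 ± 0.28 (SE) had an adjusted p of 0.0785 in limma. Trac (ENSMUSG00000076928, chromosome 14), the constant region of the alpha chain and so a gene of alpha-beta T cells, was at 38.5, 23.2, 189 and 116 across Zfp750_KO 1M, 2M, 3F and 6F, against 5.42, 28.9 and 37.1 across control 4F, 4M and 7F. Its difference of 1.11 ± 0.26 (SE) had an adjusted p of 0.0548 in limma, which was 0.00857 without control 4F.

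Cd3d ranged over 9.36 to 55.8 in Zfp750_KO and 0 to 19.1 in control. Cd3g averaged 27.7 ± 25.9 (SD, n = 4) in Zfp750_KO and 10.1 ± 7.49 (SD, n = 3) in control. Cd247, the zeta chain that NK cells also carry, ranged over 16.6 to 165 in Zfp750_KO and 10.1 to 38.2 in control. The beta chain constant regions Trbc1 and Trbc2 are near-identical copies. Their values came as fractions of reads in 6 of the 7 libraries, so their split between the copies is uncertain. Trbc1 ranged over 14.5 to 116 in Zfp750_KO and 3.39 to 20.1 in control, and Trbc2 over 21.7 to 86.9 in Zfp750_KO and 13.6 to 23.7 in control.

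The proximal signalling genes were highest in Zfp750_KO 3F and 6F. All 5 had a positive difference, with a median of 0.93, and none passed. Lck, the kinase that phosphorylates CD3, was at 28.1, 50.2, 299.8 and 215 across Zfp750_KO 1M, 2M, 3F and 6F, against 20.9, 47.3 and 45.0 across control 4F, 4M and 7F, a difference of 1.04 ± 0.39 (SE). Zfp750_KO 3F and 6F stood far above the other libraries. Lat, the adaptor that Zap70 phosphorylates and that mast cells also use, was at 25.0, 25.1, 196 and 159 in those Zfp750_KO libraries, against 2.32, 64.3 and 65.2 in the controls, a difference of 0.62 ± 0.20 (SE). Zap70 itself ranged over 13.5 to 169 in Zfp750_KO and 1.55 to 42.7 in control. Skap1, an adaptor of integrin activation, ranged over 18.7 to 127 in Zfp750_KO and 2.32 to 36.8 in control. Themis, a regulator of receptor signalling in thymocytes, ranged over 8.69 to 75.5 in Zfp750_KO and 0.774 to 21.4 in control.

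Among the lineage genes Foxp3 (ENSMUSG00000039521, chromosome X), the factor that defines regulatory T cells, was at 27.2, 27.2, 244 and 221 across Zfp750_KO 1M, 2M, 3F and 6F, against 5.94, 52.0 and 64.7 across control 4F, 4M and 7F. Zfp750_KO 3F and 6F stood above every control, whereas Zfp750_KO 1M and 2M lay below control 4M and 7F. The difference of 0.84 ± 0.26 (SE) had an adjusted p of 0.119 in limma, which was 0.0122 without control 4F. Foxp3 values came as fractions of reads in all 7 libraries, so how many of these reads belong to Foxp3 is uncertain. Il17a, a cytokine of gamma-delta and helper T cells in inflamed skin, was at 5.20, 11.6, 87.9 and 12.4 across Zfp750_KO 1M, 2M, 3F and 6F, against 0, 7.88 and 24.7 across control 4F, 4M and 7F. Zfp750_KO 3F stood alone, control 7F was above the other Zfp750_KO libraries, and the difference was 0.45 ± 0.44 (SE). Tbx21, the factor of type 1 helper and NK cells, ranged over 8.32 to 98.1 in Zfp750_KO and 5.42 to 36.0 in control.

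Gata3 had another order of libraries. This factor of type 2 helper cells is also used by keratinocytes and hair follicle cells. It was at 471, 413, 331 and 400.1 across Zfp750_KO 1M, 2M, 3F and 6F, against 1009, 104 and 224 across control 4F, 4M and 7F. Its top value was thus in the library with the least Ptprc, which also had the most Krt5, a keratin of basal keratinocytes: Krt5 was at 67.5 to 909 per M of the library total in Zfp750_KO, and at 1112, 83.5 and 128 across control 4F, 4M and 7F. The part of epithelial RNA in Gata3 was not tested. Its difference of 0.61 ± 0.43 (SE) did not pass.

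Cytotoxic and NK genes gave no call. Of 8 such genes 5 were tested, 2 with a positive and 3 with a negative log2 difference, and none passed. Klrk1, the activating receptor NKG2D of NK cells and activated T cells, was at 19.8, 35.7, 463 and 274 across Zfp750_KO 1M, 2M, 3F and 6F, against 3.87, 167 and 282 across control 4F, 4M and 7F. It was low or high with Ptprc in both groups, and its difference was -0.11 ± 0.27 (SE). Nkg7, a granule membrane protein, was at 16.6, 10.6, 116 and 74.4 in those Zfp750_KO libraries, against 0.774, 40.7 and 36.0 in the controls, a difference of 0.44 ± 0.23 (SE). Gzmb, granzyme B, was at 19.8, 8.69, 48.5 and 33.7 across Zfp750_KO 1M, 2M, 3F and 6F, against 0.774, 0 and 15.7 across control 4F, 4M and 7F. Only Zfp750_KO 2M lay below a control, and the difference of 1.07 ± 0.33 (SE) had an adjusted p of 0.121 in limma.

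Perforin, Prf1, ranged over 3.86 to 53.0 in Zfp750_KO and 5.42 to 45.0 in control, and its groups overlapped. Klrd1, the NK receptor CD94, ranged over 3.12 to 60.9 in Zfp750_KO and 0 to 49.5 in control. Granzyme A, Gzma, lay between 0.966 and 26.2 in Zfp750_KO and between 0 and 4.50 in control. Ncr1, a receptor that marks NK cells, reached 13.5 in Zfp750_KO and 11.8 in control, and was at 0 in a library of each group. Ccl5, a chemokine of effector T and NK cells, lay between 5.20 and 36.1 in Zfp750_KO and between 1.55 and 11.8 in control. The last 3 were too low to be tested.

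**Figure D3:**
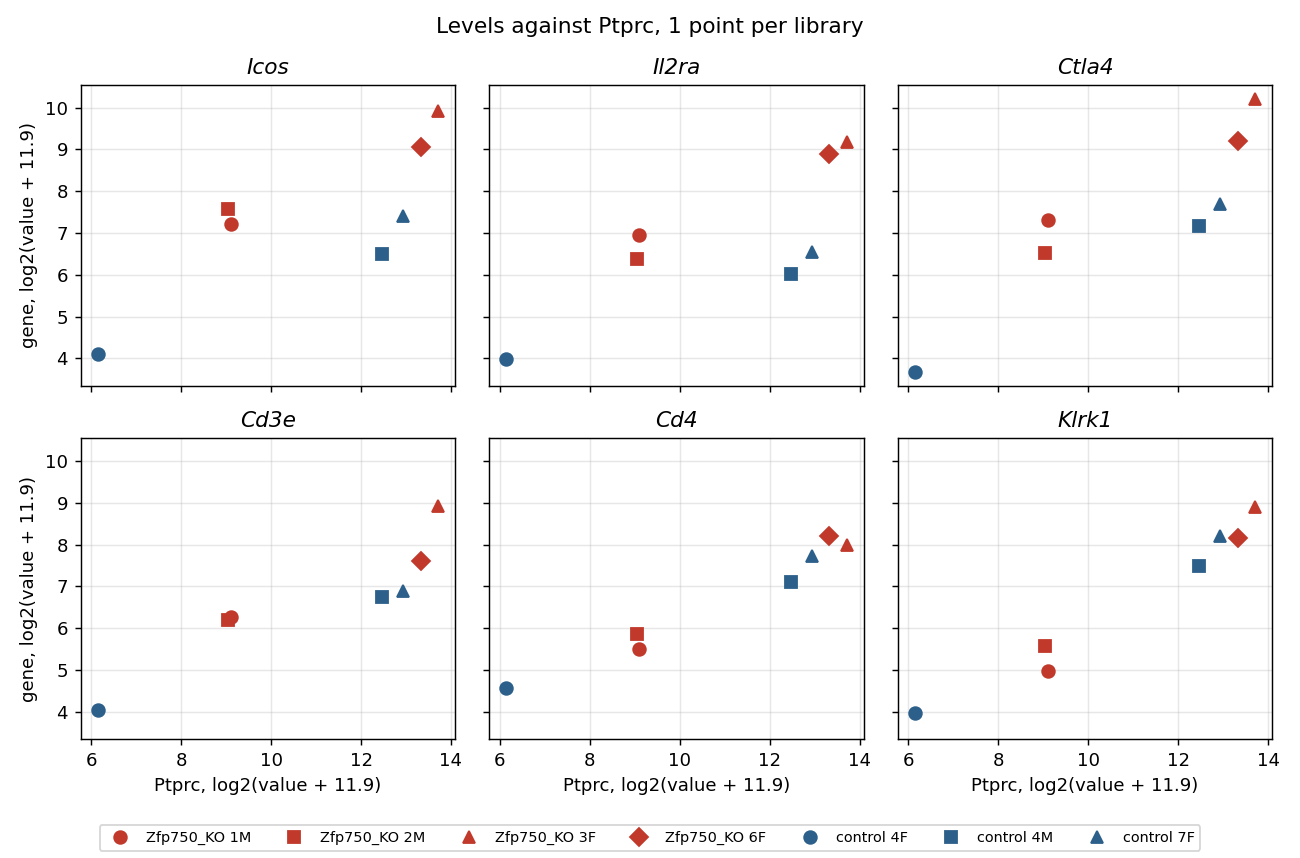
Level of 6 genes against that of Ptprc, both as log2(value + 11.9), with 1 point per library, red for Zfp750_KO and blue for control. For Icos and Il2ra, Zfp750_KO 1M and 2M reach the level of control 4M and 7F at far lower Ptprc, while for Cd4 and Klrk1 the libraries lie along 1 rising band.

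Relative to Ptprc the genes differed widely from library to library. These percentages are ratios to a single gene, not fractions of leukocyte RNA or of cells. The 7 receptor and CD3 genes together came to 34.0%, 38.2%, 8.53% and 5.60% of Ptprc across Zfp750_KO 1M, 2M, 3F and 6F, against 68.4%, 3.76% and 3.35% across control 4F, 4M and 7F. The 8 cytotoxic and NK genes came to 13.5%, 15.9%, 5.95% and 5.09% in the same Zfp750_KO libraries, against 21.1%, 5.06% and 5.66% in the controls. Both shares were high where Ptprc was low, in both groups. In control 4F they rest on 76 reads of Ptprc, so 3 reads of a gene already make 3.95% of Ptprc.

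Icos stood at 25.3%, 34.4%, 7.14% and 5.05% of Ptprc across Zfp750_KO 1M, 2M, 3F and 6F, against 9.21%, 1.39% and 2.02% across control 4F, 4M and 7F. Il2ra stood at 20.9%, 13.8%, 4.26% and 4.51% in those Zfp750_KO libraries, against 6.58%, 0.929% and 1.05% in the controls. In both, every Zfp750_KO library lay above control 4M and 7F, and control 4F lay among the Zfp750_KO libraries. Foxp3 was at 5.06%, 5.26%, 1.82% and 2.16% in Zfp750_KO, against 10.1%, 0.92% and 0.824% in control. Here too every Zfp750_KO library lay above control 4M and 7F. The same held for Il2rb and for genes that were not called, among them Cd3e, Trac, Cd28 and Lck. Klrk1 overlapped throughout, at 3.68%, 6.92%, 3.45% and 2.67% in Zfp750_KO, against 6.58%, 2.95% and 3.60% in control.

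Of the 33 tested genes, 4 had shares of Ptprc above every control in all Zfp750_KO libraries, namely Cd3d, Cd6, Ctla4 and Il7r, against 0.386% of all genes, and none had shares below every control, against 0.601%. In control 4F these 4 genes were at 0 or 1 read. For Cd3d and Cd6 some Zfp750_KO shares lay under the 3.95% that 3 reads make there, so their separation from that library was not detectable at this depth, while all Zfp750_KO shares of Ctla4 and Il7r lay above it. Ctla4 stood at 27.5%, 15.5%, 8.77% and 5.67% of Ptprc across Zfp750_KO 1M, 2M, 3F and 6F, against 1.32%, 2.35% and 2.48% across control 4F, 4M and 7F. Tested over all genes as a log2 ratio to Ptprc with the pseudocount, none of the 33 passed in limma with Benjamini-Hochberg adjustment, against 0% of all genes in either direction, and no gene of the table had an unadjusted p under 0.05. The difference was positive in 21 of the 33, against 4.13% of all genes, but this count followed single libraries: it was 33 of 33 without control 4F, 7 of 33 without control 4M and 7 of 32 without control 7F. Without Zfp750_KO 1M or 2M it was 14 or 13 of 33. The share of all genes with a positive difference was not counted in the fits that left out a library. The log2 ratio differed by 1.65 for Icos, 1.56 for Il2ra, 1.48 for Cd6, 1.36 for Ctla4 and 0.79 for Il2rb. Without control 4F these were 2.89 for Icos, 2.98 for Il2ra, 2.97 for Cd6, 2.29 for Ctla4 and 1.82 for Il2rb. Without control 4M they were 0.91 for Icos, 0.82 for Il2ra, 0.70 for Cd6, 0.87 for Ctla4 and 0.27 for Il2rb, and without control 7F they lay between 0.27 for Il2rb and 1.12 for Icos. Without Zfp750_KO 2M that of Il2rb was 0.40. Dividing by Ptprc moved the median of all genes to -0.75, beside 0.26 for the 33. Without control 4F the medians were 1.43 over all genes and 1.83 for the 33, and without control 4M they were -1.73 over all genes and -0.44 for the 33. For the tested T cell and cytotoxic genes the median was -0.69 without control 7F, beside -1.96 over all genes. It was -0.18 and -0.20 without Zfp750_KO 1M and without 2M, beside -1.48 and -1.50 over all genes. It was 0.67 and 0.62 without Zfp750_KO 3F and without 6F, beside 0.040 and -0.080 over all genes. With log2 Ptprc as a covariate in place of the divisor, Cd6, Icos, Ctla4, Il2ra and Il2rb were called higher, beside 133 of all 18141 genes. In the 4 libraries of high Ptprc alone, 6 of 34 genes were called higher relative to Ptprc, Cd6, Cd28, Icos, Ctla4, Il2ra and Lck, against 0.372% of all genes. None of the 34 was called lower, against 4990 of all 18556 genes. The divisor was itself higher in Zfp750_KO 3F and 6F, and the median was -0.77 over all genes, beside 0.62 for the 34.

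**Figure D4:**
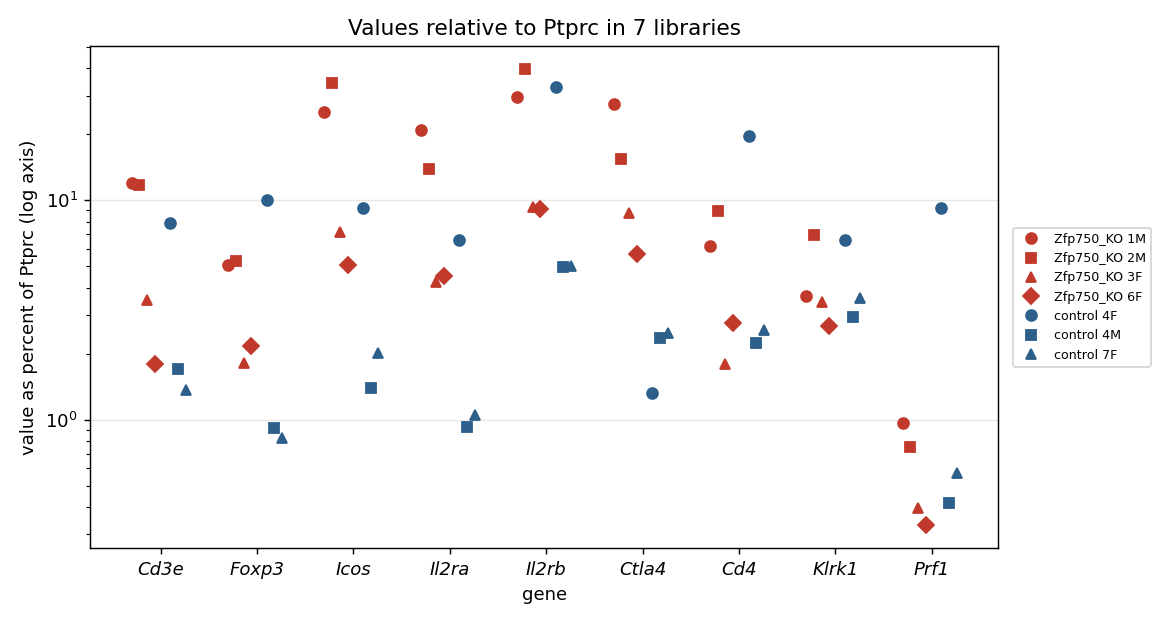
Value of 9 genes as a percentage of Ptprc in each library (log axis), red for Zfp750_KO on the left of each gene and blue for control on the right. For Cd3e, Foxp3, Icos, Il2ra, Il2rb and Ctla4 all 4 Zfp750_KO points lie above control 4M and 7F, for Cd3e by little. For Cd4, Klrk1 and Prf1 not all of them do. The control 4F points rest on 76 reads of Ptprc.

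Other genes of T cell biology, taken from lists by function, gave few calls and none lower. Of 13 activation and checkpoint receptors, 1 rose. This was Tnfrsf9, the costimulator 4-1BB of activated and regulatory T cells, at 55.1, 48.3, 246 and 245 across Zfp750_KO 1M, 2M, 3F and 6F, against 0, 24.9 and 34.9 across control 4F, 4M and 7F. Here all Zfp750_KO libraries lay above all controls, and the rise of 1.97 ± 0.22 (SE, adjusted p = 0.00321 in limma) held without any 1 of the 7 libraries.

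Of 15 homing and residence genes, Itgae, the integrin CD103 of resident T cells and some dendritic cells, rose by 1.52 ± 0.26 (SE), and Cxcr6, a receptor of resident T cells, by 1.39 ± 0.29. Of 6 tested helper cytokines, Tnfsf11, the ligand RANKL that stromal and T cells make, rose by 1.66 ± 0.28. Of 14 lymphocyte transcription factors 3 rose, Runx3 by 1.94 ± 0.22, Ikzf3 by 1.52 ± 0.25 and Bcl11b by 0.83 ± 0.18. Runx3 was at 703, 828, 1369 and 979 across Zfp750_KO 1M, 2M, 3F and 6F, against 92.9, 277 and 370.1 across control 4F, 4M and 7F, and its groups did not overlap. Relative to Ptprc it was at 131%, 160%, 10.2% and 9.55% in those Zfp750_KO libraries, against 158%, 4.90% and 4.71% in the controls. It thus exceeded Ptprc where leukocyte RNA was low, and the part of cells other than leukocytes in Runx3 was not tested. Bcl11b is also a gene of skin epithelium and fibroblasts, and its values were highest in Zfp750_KO 1M and 2M, at 2144 and 2128. None of 14 further cytotoxic and NK genes passed, among them Srgn, a granule proteoglycan of many leukocytes, at 0.17 ± 0.22 (SE), and Cd244a, a receptor of NK cells, at -0.50 ± 0.23. Without control 4M the calls of Tnfsf11, Itgae, Cxcr6, Ikzf3 and Bcl11b were lost. Without control 7F those of Tnfsf11, Cxcr6 and Bcl11b were lost, without Zfp750_KO 1M or 2M those of Cxcr6 and Bcl11b, without Zfp750_KO 3F that of Cxcr6, and without Zfp750_KO 6F that of Bcl11b. The highest adjusted p of these fits in limma was 0.191, for Bcl11b.

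Markers of other leukocytes moved with the libraries as well. The summed level of the 21 macrophage and monocyte markers was 602 to 11580.2 per M in Zfp750_KO and 255 to 6090.4 per M in control, and that of the 10 dendritic and Langerhans cell markers 35.8 to 511 per M in Zfp750_KO and 25.9 to 361 per M in control. The 8 mast cell and basophil markers summed to 99.0 to 1031 per M in Zfp750_KO and 12.9 to 681 per M in control. With the score as a covariate, 2 of 21 macrophage genes were called higher and 3 of 9 dendritic genes (Batf3, Cd209a and Flt3) lower. The 8 B and plasma cell markers summed to 98.6 to 391 per M in Zfp750_KO and 120 to 627 per M in control. The part of other leukocytes in the calls was not tested.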

How the data were processed

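RNA of tdTomato-sorted skin cells was profiled by bulk RNA-seq. The authors deposited 1 table of normalized counts, a signal per gene and library rather than raw counts, per the file headers. TopHat2 2.1.0 and Partek 9.0.20.0202 are named per the submitters' processing notes, but the sources used here give no build, annotation or strand setting, so chromosomes alone are printed from the table and overlapping genes are uncertain. Between 78.0% and 79.6% of a library's values below 200 reads were whole multiples of its step, within 0.02 reads, so count tests were not run. Columns name the group but no single sample.

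Values were analysed as log2(value + 11.9), a pseudocount of 1 per M of the median column total, in limma 3.58.1 (R 4.3.3; lmFit, eBayes with trend) on genes at 1 per M or more in at least 3 libraries. Fits had the group alone, the group on log2 ratios to Ptprc, and the group with the macrophage score. They were also run on simulated data with changes set only in genes of higher mean than many of these, and no result here rests on that run. Each pair of libraries differed beyond counting noise in 22.2% to 64.6% of genes of at least 20 reads. Named genes were the called ones, the 2 with the highest mean per role and Foxp3, Il17a, Cd4, Cd8a, Gzmb and Trac. Members and lists were chosen with earlier results of these data known. Some genes of the lists are not reported here. Alternatives changed the pseudocount, filter, scaling, moderation, weights, libraries and terms.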

Additional observations from a re-analysis of the deposited data

Results flagged for a closer look

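In the 37 genes on 2 scales, the normalized value and the percentage of Ptprc, 74 sets of 4 Zfp750_KO values were searched for 1 library far from the others, and 4 were found; chance alone gives about 1 set in 20. The groups of 3 controls were too small for this search. Il17a had a normalized value of 87.9 in Zfp750_KO 3F, against 5.20 to 12.4 in the other Zfp750_KO libraries. Relative to Ptprc, Zfp750_KO 2M stood apart in 3 genes. Cd3g was at 4.30% there, against 0.208% to 0.580% in the others. Klrd1 was at 1.87%, against 0.453% to 0.580%. Ncr1 was at 0.748%, against 0 to 0.101%. In Zfp750_KO 2M these 3 values rest on 23, 10 and 4 reads.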

How the results depend on the processing

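With the group alone the count of T cell and cytotoxic genes called higher was 0, except 23 in the 4 libraries of high Ptprc. There 851 of all 18557 genes were called higher and 1185 lower. The count called lower was 0 except with array weights, where it was 1 (Prf1). That fit called 1883 of all 18141 genes higher and 1912 lower. Relative to Ptprc the count called higher was 0, except 6 in those 4 libraries and 5 with log2 Ptprc as a covariate. Of all genes, those fits called 69 of 18556 and 133 of 18141 higher, and 4990 and 280 lower. With the macrophage score the count was 5, beside 270 of all 18141 genes called higher. It was 14 with array weights (553 of all 18141) and 11 with a term for sex (536 of all 18141). Without 1 library it ran from 3 without control 4M (55 of all 17654) to 15 without control 4F (621 of all 17924). It was 0 in the 4 libraries of high Ptprc (28 of all 18557), where score and group nearly coincide. Array weights with the group alone turned Ctla4 to -0.19 and Il2rb to -0.46. In the fit with the score, the 4 libraries turned Icos to -0.27, Ctla4 to -0.26, Cd3e to -1.20, Il2rg to -0.091, Il17a to -4.20, Gzmb to -0.81, Cxcr6 to -1.38 and Ikzf3 to -0.44; the cause was not tested. Without 1 library Klrk1 ranged from -0.33 to 0.081 and Cd4 from -0.060 to 0.25. Cd6, Icos and Il2ra kept their calls without any 1 library. No paired analysis was possible because the columns carry no replicate numbers of the labels. Depth limits control 4F, with 76 reads of Ptprc.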

Other observations

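Genes of gamma-delta T cells, which populate mouse epidermis and dermis, gave no call: 12 were measured and 7 tested, 5 of them with a positive log2 difference in the fit with the macrophage score. Sox13, a factor of interleukin-17-producing gamma-delta cells that skin epithelium also uses, differed by -0.025 ± 0.23 (SE) and Cd7 by -1.32 ± 0.34 (SE, adjusted p = 0.0693 in limma). Cd7 was at 6.24, 14.5, 50.7 and 28.9 across Zfp750_KO 1M, 2M, 3F and 6F, against 6.97, 104 and 145 across control 4F, 4M and 7F. The genes that follow were chosen after their values were seen. Trdc, the delta chain constant region, was at 20.8, 19.3, 121 and 22.7 across Zfp750_KO 1M, 2M, 3F and 6F, against 1.55, 15.8 and 27.0 across control 4F, 4M and 7F. Zfp750_KO 3F stood alone, as it did for Il17a, and the same library led for the interleukin-23 receptor Il23r, at 51.8 against 5.20 to 13.5 in the other Zfp750_KO libraries and 0 to 28.1 in control. Trgv5, of the epidermal gamma-delta receptor, was listed at 0 in 4 of the 7 libraries. Trdv4, another gene of gamma-delta T cells, was at 11.4, 13.5, 48.5 and 10.3 across Zfp750_KO 1M, 2M, 3F and 6F. In control 4F, 4M and 7F, Trdv4 was at 2.32, 6.56 and 8.998. Its groups did not overlap in value, but they overlapped relative to Ptprc. Both Trgv5 and Trdv4 were too low to be tested. Gzmm, a granzyme of NK and innate-like T cells, ran the other way, at 8.32, 13.5, 9.02 and 11.0 across Zfp750_KO 1M, 2M, 3F and 6F, against 41.0, 28.9 and 25.9 across control 4F, 4M and 7F. Its groups did not overlap, as in 3.91% of all genes with Zfp750_KO lower, and its adjusted p in the limma fit with the score was 0.0533. Relative to Ptprc, Gzmm was at 1.55%, 2.62%, 0.0672% and 0.107% in those Zfp750_KO libraries, against 69.7%, 0.511% and 0.329% in the controls. Its top value was thus in the library with the least Ptprc. The part of cells other than leukocytes in Gzmm was not tested.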
